A study of Mus musculus with 5 samples.

Results

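Neutrophil precursors that already carry much calprotectin mRNA but little or no lactoferrin mRNA were followed here in sorted mouse bone marrow. A cell was counted as such a precursor when S100a8 and S100a9 together made up at least 1% of its unique molecular identifiers (UMIs, each marking 1 captured transcript) and Ltf had 4 UMIs or fewer. The rule was met by 2125 of 11581 Lin-kit+ cells, in a table of 12893 cells in all. The cells were chosen by the measured values of these 3 genes, so their levels are given as descriptions and no test was run on them.

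All mice in the study's single-cell experiment carried Fgd5CreERT2/+ and Rosa26Tomato/+, were 20 weeks old and received no treatment. In these mice the Fgd5 locus, whose gene marks haematopoietic stem cells, drives the ZsGreen reporter and an inducible recombinase, and all libraries share both alleles. Lin-CD45.2+c-kit+ cells, that is marrow cells without mature lineage markers and with the receptor for stem cell factor, formed 3 libraries (called a, b and c), and 2 further libraries held ZsGreen+ cells (called reporter-positive). The number of mice behind a library is not given in the sources used here. The barcode suffixes of the table name no population, so libraries were assigned by their cell numbers, and the labels do not say if a, b and c are different mice or 1 cell suspension loaded at graded numbers. Every p-value therefore measures the spread between these 3 libraries, which may be technical. Depth was 10000606, 18683092 and 36080242 UMIs in libraries a, b and c.

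Neutrophils form in the marrow through a fixed order of granule production. Promyelocytes fill azurophil (primary) granules with myeloperoxidase and serine proteases such as elastase, proteinase 3 and cathepsin G. Myelocytes and metamyelocytes then make specific (secondary) granules with lactoferrin, lipocalin 2 and cathelicidin, and later gelatinase (tertiary) granules. The transcription factor C/EBPε is required for the secondary granule programme, and calprotectin, the S100A8/S100A9 dimer, is the most abundant protein of the neutrophil cytosol.

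The precursors made up 17.0% (95% Wilson interval 15 to 19.1) of library a, 18.3% (17.1 to 19.5) of library b and 18.7% (17.8 to 19.7) of library c, a mean of 18.0% ± 0.913 (SD, n = 3 libraries). The intervals cover counting error only and overlap between all 3 libraries. Of the 1312 reporter-positive cells, 1 passed the calprotectin limit and 0 met the whole rule, which allows a share of up to 0.229%. Of all Lin-kit+ barcodes, 46 occurred in more than 1 library, among them 1 barcode that was a precursor in libraries a and c. Per cell, the median depth was 5255 UMIs per precursor and 5126 per other Lin-kit+ cell. When every cell was thinned to 2000 UMIs, which left out 51 precursors and 609 other cells, the precursors showed a median of 774 genes and the others 885 (1426 and 1593 before thinning).

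Calprotectin took a median of 12.4% of a precursor's UMIs, with a range from 1.0% to 44.3%, and the medians of libraries a, b and c were 12.3%, 13.3% and 11.7%. S100a8 supplied 8.64% and S100a9 4.45% of all UMIs of the class, and 78.5% of the precursors had 0 UMIs of Ltf. The balance of both subunits moved along the share. Among cells with Ltf at 4 UMIs or fewer, the ratio of S100a8 to S100a9 UMIs was 16.8 ± 1.85 (mean ± SD, n = 3 libraries) just under the limit, at a share of 0.5 to 1%. Inside the class it was 8.09 ± 1.95 at 1 to 2%, 3.61 ± 0.780 at 2 to 5%, 2.26 ± 0.179 at 5 to 10%, 1.80 ± 0.144 at 10 to 20% and 1.74 ± 0.148 at 20% and over. S100a8 transcripts far outnumbered those of S100a9 in the cells with least calprotectin, and the ratio in the cells richest in it was close to the 1.67 ± 0.145 of cells with Ltf. Both genes lie on chromosome 3 (mm10, 90669071 to 90670034 for S100a8 and 90692630 to 90695721 for S100a9).

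Cells just inside and just outside the limits are described once, without a test. The 54 precursors nearest above the calprotectin limit (within the same distance of it) had 27992 CPM of Elane, 624 of Fcnb and 118 of Camp, and the 64 cells at 0.75 to 1% that were left out had 25929.6, 361 and 102. Levels are in UMIs per 1000000 UMIs other than those of S100a8, S100a9 and Ltf (CPM). At the other limit, the 138 precursors with 3 or 4 UMIs of Ltf had 77353 CPM of Camp and 12885 of Elane, against 77581 and 10767 in the 110 excluded cells with 5 or 6. At the calprotectin limit Fcnb was higher inside, and at the Ltf limit Camp and Elane were similar on either side.

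The marker genes that the rule did not use were abundant in the class. With each cell thinned to 2000 UMIs, Fcnb (ficolin B, a lectin of neutrophil granules) was found in 91.4% of the precursors, Camp (cathelicidin) in 78.2% and Cebpe in 77.9%. In erythroid reference cells, which should lack these genes, the shares were 0.510%, 15% and 0.680% over 588 thinned cells, with a median of 4687 UMIs before thinning. Without thinning the shares were 97.7%, 86.8% and 94.8% in the precursors and 2.0%, 33.1% and 1.69% in the reference cells. All 3 genes were found in a far larger share of precursors than of reference cells. Camp had 68.7 ± 32.5 CPM in the reference cells, more than the other 2 genes. Whether it came from free RNA or from mixed cells was not tested.

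Counts were summed per library and class and compared with edgeR's quasi-likelihood test, with the library as a block. The choice of cells and the tested genes come from the same droplets, so a call says that a gene differed between the classes in the same way across libraries. Against all other Lin-kit+ cells, 61.3% of 10367 genes passed at an adjusted p of 0.05, 26.3% higher and 34.9% lower in the precursors. At least 2-fold higher were 7.21% and 2-fold lower 15.8% of the genes. These shares are the background for the gene groups given next. Scaling by library totals instead of TMM turned the split from 2731 higher and 3621 lower to 1713 and 5463. It moved the median log2 fold change of all genes from -0.11 to -0.37, and small differences are to be read against that shift.

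The primary granule genes stood higher in the precursors than in the other Lin-kit+ cells. Of 7 listed and tested genes, 6 were higher (Mpo, Elane, Prtn3, Ctsg, Prss57 and Cst7) and 1, Ctsc, was lower, with a median log2 fold change of 1.35 for the list and -0.11 for all genes. Of these, 5 were at least 2-fold higher. Elane, the gene of neutrophil elastase, had 26116, 25348 and 27694 CPM in the precursors of libraries a, b and c, and 5719.9, 5589 and 5718 CPM in the other cells. The groups did not overlap, and the log2 fold change was 2.48 ± 0.03 (SE, adjusted p = 7.18e-59). Mpo, which encodes myeloperoxidase, had 7007, 7460.5 and 8660.0 CPM against 3835, 3921 and 3981 CPM, a log2 fold change of 1.24 ± 0.03 (adjusted p = 5.32e-41). Ctsc, the peptidase that activates these serine proteases, went the other way, from 113 ± 10.1 CPM to 27.5 ± 7.55 CPM (log2 fold change -1.79 ± 0.09). This held in each of the 3 libraries.

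Since all other Lin-kit+ cells are a mixture, the precursors were set beside the most similar classes on each side. The early side was formed by 3676 cells with under 1% calprotectin in which Elane and Prtn3 made up at least 0.5% of UMIs (called early cells), and the late side by 938 cells above the calprotectin limit with 5 or more UMIs of Ltf (called Ltf+ cells). All comparisons share the precursors of the same 3 libraries. Against the early cells 57.7% of 9536 genes passed (28% higher, 29.7% lower in the precursors), and against the Ltf+ cells 40.8% of 6995 (22% higher, 18.8% lower). At least 2-fold higher or lower were 8.58% and 10.4% on the early side, and 6.83% and 4.85% on the late side. With library totals the splits changed from 2668 and 2836 to 1876 and 4150 on the early side, and from 1538 and 1316 to 2175 and 920 on the late side.

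Against the Ltf+ cells all 7 primary granule genes were higher in the precursors, with a median log2 fold change of 2.34 (0.02 for all genes), and 6 of them at least 2-fold. Ctsg (cathepsin G) had 3757, 4051 and 4806 CPM in the precursors and 161, 217 and 435 CPM in the Ltf+ cells, the groups far apart (log2 fold change 3.69 ± 0.09, adjusted p = 3.31e-25). Mpo stood at 814 ± 204 CPM in the Ltf+ cells (log2 fold change 3.09 ± 0.07) and Elane at 4757 ± 1228 CPM (2.34 ± 0.07). Against the early cells the genes parted. Elane and Prtn3 helped choose those cells and were not tested, and Elane stood at 10269 ± 319 CPM there and at 26386 ± 1196 CPM in the precursors. Prss57, a serine protease of the same granules, was higher in the precursors at 554 ± 35.1 CPM against 200.3 ± 6.16 CPM (log2 fold change 1.71 ± 0.04), and Mpo and Cst7, a cysteine protease inhibitor, were higher by 0.43 ± 0.03 and 0.76 ± 0.04. Ctsc was lower (-2.41 ± 0.09). Ctsg had a lower CPM in the precursors, 4205 ± 541 CPM against 4665 ± 296 CPM, while the TMM-scaled log2 fold change was 0.07 ± 0.03 and library totals gave -0.12, so its direction depended on the scaling and no call is made of it. Restricting the precursors to 2% calprotectin or the early cells to 1% Elane and Prtn3 also turned it, to -0.13 and -0.15.

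The secondary granule genes differed between the precursors and both neighbours. The early cells were set apart by calprotectin and the Ltf+ cells by Ltf, itself a secondary granule gene. Genes that vary with these therefore had to differ, and the calls are descriptions of that variation. Of 12 genes on the list, Ltf was left out because it chose the cells and Olfm4 was too sparse to test (9 UMIs over all precursors). The 10 others (Camp, Ngp, Lcn2, Chil3, Pglyrp1, Cd177, Hp, Anxa1, Wfdc21 and Fcnb) were all higher than in the early cells and all lower than in the Ltf+ cells, 10 and 8 of them at least 2-fold. They were also all higher than in all other Lin-kit+ cells. The median log2 fold change was 5.47 on the early side (-0.05 for all genes) and -1.94 on the late side. Their summed level was 1156 ± 90.4 CPM in the early cells, 58249 ± 3991 CPM in the precursors and 225641 ± 2428 CPM in the Ltf+ cells. Both scalings and DESeq2 gave the same counts in each direction.

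Camp had 32.3, 75.1 and 80.4 CPM in the early cells of libraries a, b and c, 26934, 30909.6 and 27457 CPM in the precursors and 94715, 93381 and 90221 CPM in the Ltf+ cells. The 3 classes did not overlap, with log2 fold changes of 8.94 ± 0.08 against the early cells (adjusted p = 1.92e-29) and -1.88 ± 0.05 against the Ltf+ cells (adjusted p = 2.45e-24). Its level in the early cells was about that in the erythroid reference cells, so the fold on that side was taken against a background level. Ngp, the neutrophilic granule protein, followed with 54.6 ± 18.0 CPM, 16020.3 ± 1256 CPM and 88256 ± 1076 CPM. Its level in the early cells was likewise near that of the erythroid reference cells (46.2 ± 23.6 CPM). Lcn2 (lipocalin 2, which binds bacterial siderophores) was still low, with 782, 935 and 829 CPM in the precursors and 9926, 10385 and 9227 CPM in the Ltf+ cells (log2 fold change -3.70 ± 0.05, adjusted p = 1.46e-31). Against all other Lin-kit+ cells Lcn2 was higher by 0.57 ± 0.04, and this direction turned to -0.15 when the class was restricted to cells with at most 1 UMI of Ltf, which moves Lcn2-rich cells to the other side. Fcnb differed less from the late side, 2729.9, 2766 and 2816 CPM against 4032, 3773 and 3753 CPM (log2 fold change -0.64 ± 0.05), and far above the 45.7 ± 2.43 CPM of the early cells (6.14 ± 0.04). Haptoglobin (Hp) had 494 ± 22.5 CPM, 1703 ± 119 CPM and 2447 ± 89.8 CPM in early cells, precursors and Ltf+ cells.

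**Figure D1:**
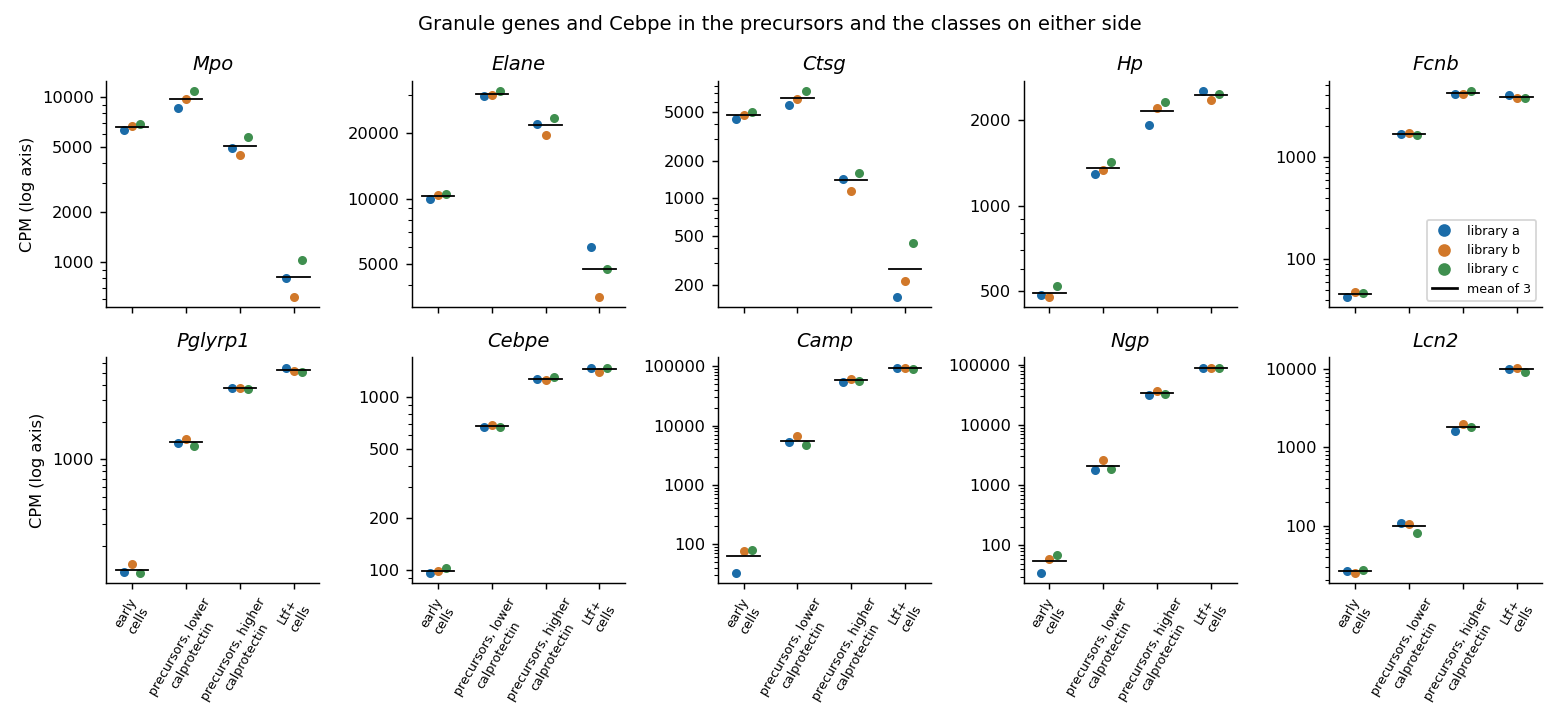
Level in CPM (log axes that differ between panels) of 9 granule genes and Cebpe in early cells, precursors below and above their library's median calprotectin share, and Ltf+ cells. Points are libraries a, b and c and bars their mean. Mpo, Elane and Ctsg peak in the lower-calprotectin precursors and fall to the Ltf+ cells, while Camp, Ngp and Lcn2 climb at every step, Camp from 62.6 to 92772 CPM.

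Within the class, the secondary granule genes differed in how near they were to their Ltf+ level at a low calprotectin share. Their order in time was not tested. Precursors were placed in 5 bins by their calprotectin share, and each gene's level was expressed as a percentage of its level in the Ltf+ cells of the same library. These bins use the genes of the rule, and the values are descriptions (mean ± SD, n = 3 libraries, with at least 22 cells per bin and library). At a share of 1 to 2%, Hp was already at 40.9% ± 3.25 of the late level, Cebpe at 30.6% ± 3.48, Wfdc21 at 16.7% ± 1.66, Fcnb at 16.2% ± 0.663 and Pglyrp1 (a peptidoglycan recognition protein) at 15.2% ± 2.54. Camp was at 0.277% ± 0.181, Lcn2 at 0.334% ± 0.0596 and Ngp at 0.109% ± 0.0472 in the same cells. No background level was subtracted from these percentages. At 5 to 10%, Hp stood at 63.7% ± 2.45 and Fcnb at 58.2% ± 2.33, but Camp at 8.70% ± 0.962, Ngp at 3.22% ± 0.509 and Lcn2 at 1.27% ± 0.213. In the cells with 20% and over, Fcnb exceeded the late level at 118% ± 10.3, Camp had reached 78.6% ± 6.78, Ngp 51.7% ± 3.83, Chil3 48.8% ± 4.26, Cd177 39.9% ± 6.11 and Lcn2 28.4% ± 2.76. Lcn2 had the lowest percentage of the 10 tested secondary granule genes in that bin.

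**Figure D2:**
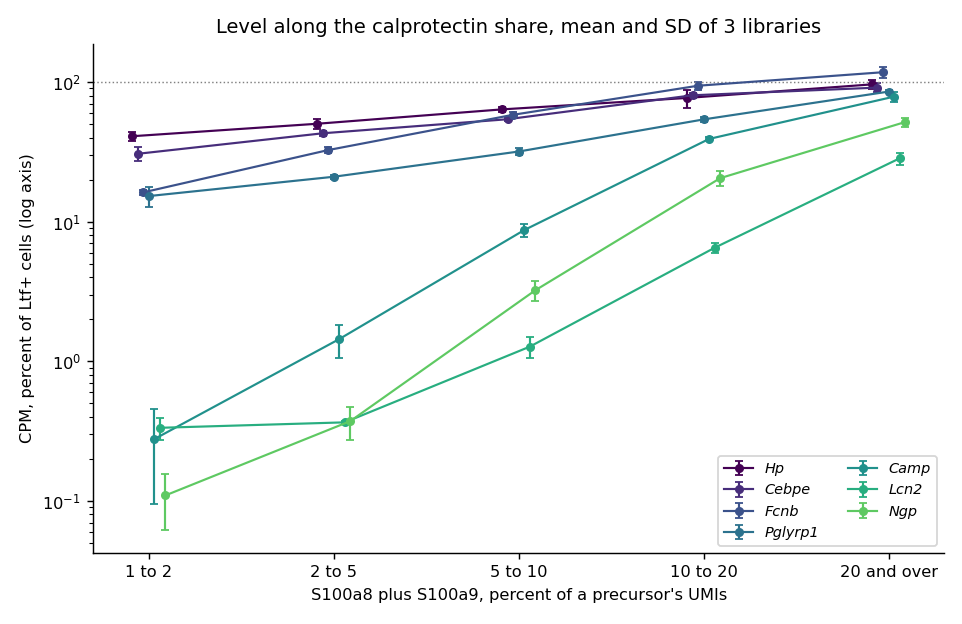
Mean CPM of 7 genes in 5 bins of the calprotectin share of a precursor, as a percentage of the CPM in Ltf+ cells of the same library (log axis), with SD over 3 libraries. Hp, Cebpe, Fcnb and Pglyrp1 start between 15.2% and 40.9%, and Camp, Lcn2 and Ngp start under 1% and reach 78.6%, 28.4% and 51.7% in the last bin.

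The precursors split into members below and above their library's median calprotectin share were also tested, and 39.8% of 6567 genes passed. Of the tested genes, 20.1% were higher and 19.8% lower in the members with more calprotectin. At least 2-fold higher were 4.25%, and 4.17% were at least 2-fold lower. The split uses S100a8 and S100a9, which chose the cells. Genes that vary with calprotectin among the members therefore had to differ, and these calls are descriptions of that variation. All 10 secondary granule genes were higher and all 7 primary granule genes lower with more calprotectin, with median log2 fold changes of 2.47 and -0.82 (0.00 for all genes). At least 2-fold were 9 of the secondary and 2 of the primary granule genes. Ngp had 1792, 2616 and 1843 CPM in the lower and 31886, 36340.1 and 33052 CPM in the higher members (log2 fold change 4.17 ± 0.05). Ctsg had 5615, 6328 and 7279.5 CPM and 1428, 1155 and 1609 CPM (-2.08 ± 0.05). Elane differed less, with 30084 ± 850.3 CPM and 21679.7 ± 1878 CPM (-0.34 ± 0.05). In the higher members Elane UMIs outnumbered those of Ctsg in each library, and in the early cells Elane stood at 10269 CPM and Ctsg at 4665 CPM.

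Among genes with at least 100 UMIs in the higher class, the largest increases with more calprotectin were Ifitm6, Lcn2, Ngp, Cd177 and Chil1, and the largest decreases Fkbp11, Ccl9, Gm15658, Pik3ip1 and Gcsh. Ifitm6, an interferon-induced transmembrane family gene, had 3.76, 3.62 and 4.09 CPM in the lower and 73.9, 99 and 82.0 CPM in the higher members (4.57 ± 0.20). Fkbp11, a prolyl isomerase of the secretory pathway, had 44.4 ± 8.73 CPM and 2.84 ± 1.98 CPM (-3.94 ± 0.29), and the chemokine Ccl9 had 90.7 ± 27.9 CPM and 5.97 ± 5.27 CPM (-3.62 ± 0.18). Library totals split the calls within the class into 900 higher and 1833 lower, against 1317 and 1299. The number of calls fell from 2616 to 1432 without the library block and to 1730 without library c.

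Single precursors carried transcripts of both granule types at once. Elane and Camp each made up at least 1% of UMIs in 42.2% of the precursors. A further 29.3% had at least 1% Elane with under 0.1% Camp, and 13.6% had under 1% Elane with at least 1% Camp. The joint share was 44.1%, 42.1% and 41.8% in libraries a, b and c. In 1375 of the 2125 cells both genes had 10 UMIs or more. Across the 2125 cells, which share libraries and are no replicates, Spearman's rho of both shares was -0.69, and -0.66 in 2074 cells thinned to 1 depth. Scrublet called 59 precursors doublets (2.78%, and 0.677% of the other Lin-kit+ cells), and these cells held 2.72% of the class's Elane UMIs and 2.90% of its Camp UMIs.

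**Figure D3:**
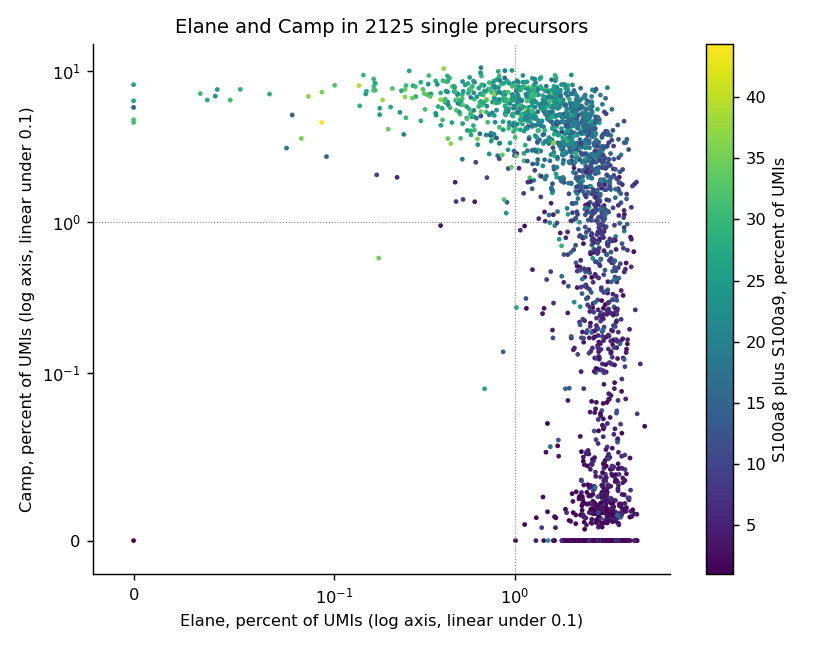
Share of UMIs from Elane (x) and Camp (y) in each of the 2125 precursors, on log axes that are linear under 0.1%, coloured by the calprotectin share. Dotted lines mark 1%. Camp rises over a wide range while Elane stays above 1%, and Elane drops in the cells with most Camp and most calprotectin.

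The secondary granule genes Camp, Ngp and Ltf lie on chromosome 9 of mm10, Camp at 109847377 to 109849456, Ngp at 110419808 to 110423012 and Ltf at 111019292 to 111042766. For all listed granule genes with an entry, the 250 bases before each gene's start (RefSeq, GRCm38.p6) were searched on both strands for the letters TTGCNNAA, a form of the C/EBP recognition sequence whose other strand reads TTNNGCAA. A match was present for 5 of the 10 secondary granule genes with a promoter entry (Anxa1, Fcnb, Lcn2, Ltf and Ngp) and for 0 of 6 primary granule genes, and 9.56% of all 32851 promoters hold one. A match is a description of letters and not of binding. The stretches of Fcnb, Ngp and Ltf are shown 5′ to 3′ on the gene's strand with matches in capitals. Fcnb had a higher and Ngp a lower percentage of the Ltf+ level at a low calprotectin share, and Ltf bounds the class. Bases inside an annotated exon (GENCODE M21) were cut off at the 3′ end.
Fcnb promoter (GRCm38.p6, chr2:28084886-28085128, - strand): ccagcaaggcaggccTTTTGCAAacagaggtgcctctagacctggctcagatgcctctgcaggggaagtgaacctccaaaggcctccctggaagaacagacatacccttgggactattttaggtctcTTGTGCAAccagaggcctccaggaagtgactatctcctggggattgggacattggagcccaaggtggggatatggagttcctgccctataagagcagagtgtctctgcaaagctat
Ngp promoter (GRCm38.p6, chr9:110419558-110419746, + strand): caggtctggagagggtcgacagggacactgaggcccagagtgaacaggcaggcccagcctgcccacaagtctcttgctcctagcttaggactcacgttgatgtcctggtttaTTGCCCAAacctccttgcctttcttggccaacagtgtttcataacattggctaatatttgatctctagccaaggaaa
Ltf promoter (GRCm38.p6, chr9:111019042-111019270, + strand): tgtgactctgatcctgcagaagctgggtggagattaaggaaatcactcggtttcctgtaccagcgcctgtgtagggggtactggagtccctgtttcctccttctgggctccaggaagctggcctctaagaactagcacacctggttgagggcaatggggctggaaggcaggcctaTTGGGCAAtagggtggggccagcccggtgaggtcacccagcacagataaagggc

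The subunits of the NADPH oxidase, which makes superoxide in phagocytes, were together lowest in the early cells and highest in the Ltf+ cells. All 6 listed genes, among them Cybb, Cyba and Rac2, were higher in the precursors than in the early cells, lower than in the Ltf+ cells, and higher in members with more calprotectin. Cybb, the catalytic subunit, had 53.3, 53.3 and 53.2 CPM in the early cells, 267, 236 and 217 CPM in the precursors and 675, 730.2 and 685 CPM in the Ltf+ cells, without overlap (2.36 ± 0.06 and -1.75 ± 0.06). In the bin of 1 to 2% calprotectin Cybb was at 6.27% ± 1.17 of the late level, while its partner Cyba was at 34.8% ± 0.555. Of the 15 genes listed for tertiary granules and mature neutrophils, 9 could be tested on the early side. Of these, 6 were higher in the precursors (Itgam, Cxcr2, Retnlg, Mcemp1, Padi4 and Trem1) and 3 lower, among them Mmp8 and Ccl6, and against the Ltf+ cells 0 of 9 were higher and 8 lower. Itgam, the integrin chain CD11b, had 6.22 ± 0.972 CPM, 60.3 ± 11 CPM and 109 ± 20.7 CPM in early cells, precursors and Ltf+ cells. The gelatinase Mmp9 had 0 UMIs in the precursors, which allows up to 0.287 CPM, and Mmp8 had 3 UMIs.

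**Figure D4:**
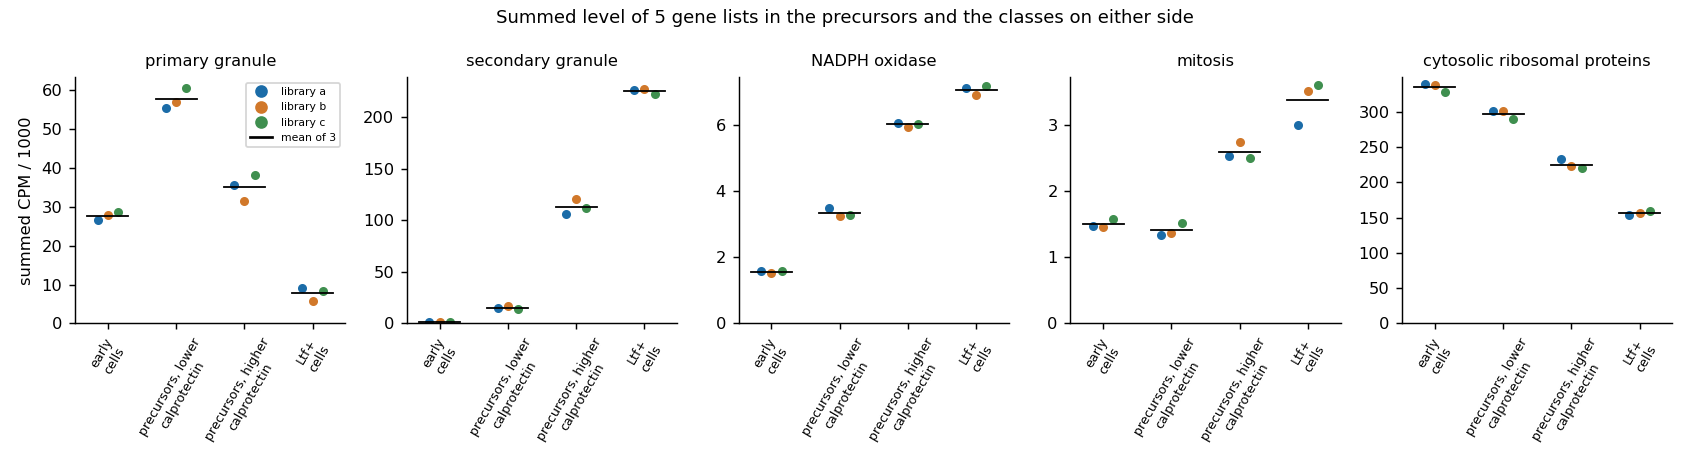
Summed CPM divided by 1000 (linear axes from 0) of 5 gene lists in the same 4 classes, with 1 point per library and a bar for the mean. The primary granule sum is highest in the lower-calprotectin precursors, the secondary granule and NADPH oxidase sums climb at each step, and the ribosomal protein sum declines at each step.

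Among 23 listed regulators in the table, 9 were higher and 14 lower in the precursors than in all other Lin-kit+ cells. Over all genes tested 26.3% were higher and 34.9% lower, and 43.0% of the called genes were higher, a split near that of the list. Cebpe had 935, 930.4 and 942 CPM in the precursors and 144, 145 and 173 CPM elsewhere (log2 fold change 2.86 ± 0.04, adjusted p = 4.47e-50). It was also higher than in the early cells (99.2 ± 3.32 CPM, 3.46 ± 0.04) and lower than in the Ltf+ cells (1439 ± 48.0 CPM, -0.79 ± 0.05). Gfi1, a repressor needed for neutrophil maturation, was higher in the precursors than on either side. It stood at 8.77, 8.53 and 8.54 CPM in the early cells, 23.7, 23.0 and 20.1 CPM in the precursors and 2.1, 1.03 and 7.12 CPM in the Ltf+ cells, and was already lower in members with more calprotectin (-0.88 ± 0.21). DESeq2 kept that direction but not the call (-0.85, adjusted p = 0.125). Id2, an inhibitor of basic helix-loop-helix factors, was at 6.57 ± 1.52 CPM in the early cells and 144 ± 7.99 CPM in the precursors (4.58 ± 0.10), and Id1 had 48.8 ± 7.36 CPM against 19.9 ± 0.998 CPM in all other cells (1.48 ± 0.10).

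Regulators of other fates were low. Irf8, which directs monocyte and dendritic cell development, had 579, 533 and 546 CPM in the early cells and 19.5, 18.6 and 36.4 CPM in the precursors (log2 fold change -4.03 ± 0.09, adjusted p = 1.98e-21). With thinned cells Irf8 was found in 55.9% of early cells and 2.07% of precursors, and the latter is close to the 1.87% of erythroid reference cells. The early cells as a whole carried monocyte or dendritic markers at a sum of 1628 to 1699 CPM, against 63.5 to 164 CPM in the precursors, and the part of this in the differences from the early cells was not tested. Klf4, another monocyte factor, was at 1.34 ± 1.32 CPM against 19.4 ± 0.533 CPM in all other cells (-3.25 ± 0.26). Cebpa, Myb and Myc, which act earlier in the lineage, were lower in the precursors than in the early cells and higher than in the Ltf+ cells, by 2.44 ± 0.57, 1.0 ± 0.13 and 1.66 ± 0.23 on that side. The call for Cebpa rested on 71 UMIs in the precursors and was lost with DESeq2 (2.32, adjusted p = 0.0995). Spi1, which encodes PU.1, varied between libraries, with 187, 49.98 and 29.0 CPM in the precursors of libraries a, b and c. Its level stepped down in the same order in the other cells (124, 43.3 and 24.1 CPM), and what set the libraries apart was not tested.

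Of 18 receptors and surface genes, 8 were higher and 10 lower in the precursors than in all other Lin-kit+ cells. Over all genes tested 26.3% were higher and 34.9% lower, and 43.0% of the called genes were higher. The split of the list is near that of all called genes. Vcam1, an adhesion molecule better known from stromal cells and macrophages, followed Clec4b2 as the largest increase by the naming rule. It had 121, 117 and 127 CPM in the precursors, 7.01, 8.18 and 7.62 CPM in all other cells and 48.2, 43.3 and 44.5 CPM in the Ltf+ cells (log2 fold changes 4.26 ± 0.09 and 1.31 ± 0.11, adjusted p = 1.69e-43 and 1.41e-11). Along the calprotectin share it stood at 72.1 ± 8.95 CPM at 1 to 2%, 147 ± 19.5 at 2 to 5%, 161 ± 24.1 at 5 to 10%, 124.6 ± 27.0 at 10 to 20% and 88.7 ± 13.2 at 20% and over. Its 1293 UMIs were spread over 807 precursors with at most 10 in any cell, and doublets held 2.01% of them. The macrophage markers C1qa and C1qb had 1 UMI each in the class. The lectin receptor gene Clec4b2 had 2.07 ± 0.807 CPM, 56.6 ± 4.34 CPM and 37.3 ± 5.86 CPM in early cells, precursors and Ltf+ cells (5.16 ± 0.17 and 0.50 ± 0.14). On the late side Clec4b2 lost its call without library c (0.36, adjusted p = 0.204), with DESeq2 (0.45, adjusted p = 0.207), without the library block (0.49, adjusted p = 0.0516) and with equal cell numbers (0.24, adjusted p = 0.456).

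The receptor for granulocyte colony-stimulating factor, Csf3r, was higher than in all other cells at 51.5 ± 5.21 CPM against 20.0 ± 2.11 CPM (1.63 ± 0.10), and Cd63, a membrane protein of primary granules, was at 1908 ± 219 CPM against 425 ± 41.8 CPM (2.43 ± 0.03). Against the Ltf+ cells neither Csf3r (0.12 ± 0.14) nor Cd63 (0.10 ± 0.05) passed. Receptors of immature cells were low. Cd34 had 3.49, 8.78 and 9.73 CPM in the precursors and 151, 147 and 148 CPM in the other cells (-3.86 ± 0.11, adjusted p = 9.20e-37). Flt3 was at 0.838 ± 0.844 CPM and Csf1r, the receptor of the monocyte growth factor, at 2.92 ± 0.95 CPM, with log2 fold changes of -4.06 ± 0.28 and -2.67 ± 0.19. Kit, the receptor used for the sort, was lower with a log2 fold change of -0.57 ± 0.12, with 11.2, 18.9 and 19.6 CPM in the precursors and 32.6, 34.5 and 30.5 CPM in the other cells. All cells passed the same gate on the protein, and the transcript was lower than in the other cells in each library. Kit did not pass against the early cells. It did not pass against the Ltf+ cells either (0.40 ± 0.24, adjusted p = 0.186 in edgeR's quasi-likelihood test).

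**Figure D5:**
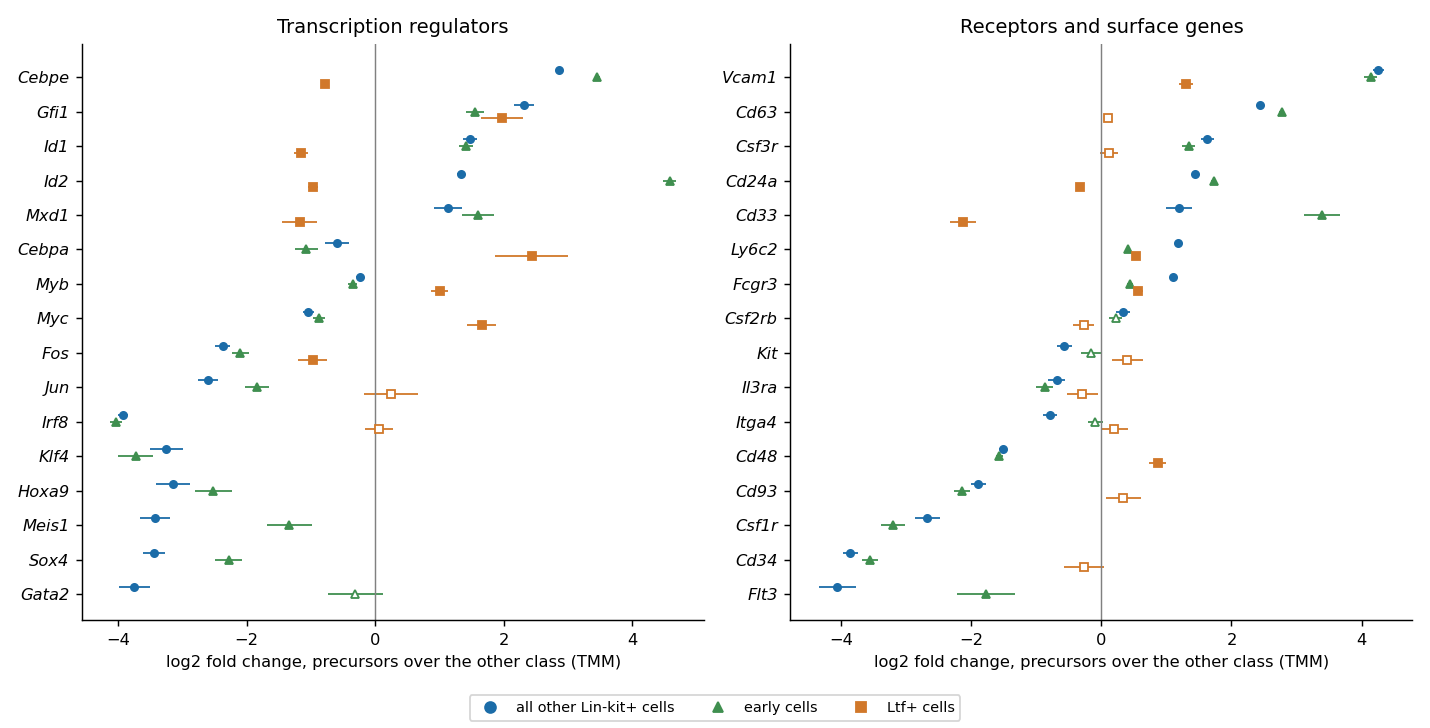
Log2 fold change with SE (TMM-scaled) of 16 regulators and 16 receptors or surface genes in the precursors over all other Lin-kit+ cells (circles), early cells (triangles) and Ltf+ cells (squares). Filled symbols passed at an adjusted p of 0.05, open symbols did not, and genes too sparse in a comparison have no symbol. Cebpe and Id2 lie right of 0 for the early cells and left of 0 for the Ltf+ cells, and Gfi1 and Vcam1 lie right of 0 in all 3.

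Genes of mitosis were higher in members with more calprotectin and in the Ltf+ cells. All 19 listed genes were lower in the precursors than in the Ltf+ cells (median log2 fold change -0.96), and 18 were higher in members with more calprotectin (median 0.89), counts that held with library totals. Top2a, which untangles DNA for chromosome separation, had 142, 139 and 149 CPM in the lower members, 216, 259 and 280.0 CPM in the higher members and 329, 383 and 405 CPM in the Ltf+ cells (1.0 ± 0.07 within the class and -1.13 ± 0.06 for precursors against Ltf+ cells). In cells thinned to 2000 UMIs, 21.3% of early cells, 18.9% of lower members, 32.9% of higher members and 46.2% of Ltf+ cells had 5 or more UMIs of the mitosis list. Against all other Lin-kit+ cells 14 were higher and 0 lower with TMM, but 8 higher and 4 lower with library totals. S phase genes moved less evenly. With more calprotectin 10 of 17 were higher and 1 lower (6 and 1 with library totals). Rrm2, the regulated subunit of ribonucleotide reductase, was at 477 ± 31.0 CPM against 219 ± 29.9 CPM in all other cells (1.37 ± 0.04), and cyclin E2 (Ccne2) was higher by 1.34 ± 0.08. Over that whole comparison 11 of 18 were higher and 2 lower, which turned to 4 and 8 with library totals. Rrm2 and Ccne2 were both lower in the precursors than in the Ltf+ cells.

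Transcripts of ribosomal proteins were lower in members with more calprotectin and in the Ltf+ cells. All 94 tested symbols of cytosolic ribosomal proteins were higher in the precursors than in the Ltf+ cells (median log2 fold change 0.59, 0.02 for all genes), and 90 of 94 were lower in members with more calprotectin (median -0.26). Their summed level was 335285 ± 6207 CPM in the early cells, 297525 ± 6299 CPM and 225152 ± 7222 CPM in the lower and higher members, and 156817 ± 3126 CPM in the Ltf+ cells. The list includes symbols of pseudogenes, whose reads cannot be told apart from those of the parent gene. Mitochondrial transcripts were higher than in the Ltf+ cells for 11 of 12 tested genes (median 0.44). As shares of a fixed number of UMIs, all these levels are relative, and less of one transcript cannot be told apart from more of the others.

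Other genes set the precursors apart from each neighbour. Against the early cells the largest increases by the naming rule were Olfml2b, Camp, Itgb2l, Ngp and Gm19705. Olfml2b had 0 UMIs in the early cells and was at least 114-fold higher, with the early cells set to 3 UMIs over their libraries. Itgb2l, an integrin beta chain of neutrophils, had 0.201 ± 0.236 CPM, 52.6 ± 6.69 CPM and 214 ± 28.1 CPM in early cells, precursors and Ltf+ cells (8.48 ± 0.25 on the early side). Il1r2, the decoy receptor of interleukin 1, had 0.290 ± 0.161 CPM and 32.3 ± 4.22 CPM (7.21 ± 0.25). Against the Ltf+ cells the largest increases by the same rule were Oosp1, Gm16104, Ctsg, Dmkn and Tslp. Dmkn had 294, 267 and 299 CPM in the precursors and 27.3, 16.5 and 26.7 CPM in the Ltf+ cells (3.43 ± 0.11), and Srgn, whose proteoglycan packs granule proteases, had 3109 ± 183 CPM and 358 ± 70.1 CPM (2.92 ± 0.06). The largest decreases by the rule on that side were Ifitm6, Ceacam10, AA467197, Lcn2 and Inhba. Lysozyme 2 (Lyz2) had 4186 ± 101 CPM in the precursors and 25041 ± 689 CPM in the Ltf+ cells (-2.75 ± 0.05). By the rule, the genes with the largest decrease against all other cells were Ermap, Gzmb and Mzb1, each with 0 UMIs in the precursors and at least 30-, 22.5- and 22.8-fold lower than in the other Lin-kit+ cells. Of the 440 Ermap UMIs in those other cells, 417 lay in the 649 erythroid reference cells, so its fold largely describes erythroid cells in the mixture. Gzmb and Mzb1 had 2 and 3 UMIs in the reference cells.

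Markers of other marrow cell types were low but not at 0. Monocyte or dendritic markers summed to 63.5 to 164 CPM over the 3 libraries against 1986 to 2042 CPM in the other Lin-kit+ cells, and erythroid markers to 34.4 to 90.7 CPM against 628 to 848 CPM. The erythroid sum was 61.7 ± 28.2 CPM in the precursors, 19.2 ± 9.20 CPM in the early cells and 24.0 ± 13.6 CPM in the Ltf+ cells. Car1 and Car2 were called higher in the precursors than in either, and with DESeq2 1 of these 2 passed against the Ltf+ cells. Without doublets the monocyte or dendritic sums were 46.4, 39.1 and 83.3 CPM, and the erythroid sums 16.4, 35.0 and 26.7 CPM. Mast or basophil markers summed to 22.3 to 152 CPM against 1594 to 1846 CPM, highest in library c, and 20 cells held 72.5% of their UMIs. Called doublets held 53.1% of the monocyte or dendritic, 53.8% of the erythroid and 23.9% of the mast or basophil UMIs in the class. Megakaryocyte markers reached 0.698 to 21.9 CPM, eosinophil markers 4.89 to 7.77 CPM with Epx at 0 UMIs, lymphoid markers 2.09 to 4.73 CPM with Cd79a and Ebf1 at 0, stem cell markers 4.73 to 7.58 CPM, and the macrophage list 119.5 to 129.7 CPM, of which Vcam1 made up 1293 of 1319 UMIs. Without doublets 6526 genes passed against all other cells, compared with 6352. What part these cells have in the results was not tested further.

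The number of calls on the late side depended on the fit. Of the 2854 genes called against the Ltf+ cells, 1885 were called without the library block and 1868 genes were called without library c. With DESeq2 the counts were 1511 against the Ltf+ cells and 3445, in place of 5504, against the early cells.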

How the data were processed

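Cells from mouse bone marrow were profiled with droplet 3′ sequencing (10x Chromium). The authors deposited 1 table of raw UMI counts per gene and cell, made with Cell Ranger 1.3 and 2.1, Seurat 2.3.4 and genome build mm10 per the submitters' processing notes. Barcode suffixes were assigned to the Lin-kit+ and reporter-positive populations by their cell numbers.

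UMI counts were summed per library and class, without S100a8, S100a9 and Ltf, and tested with edgeR 4.0.16 (R 4.3.3; TMM, filterByExpr, quasi-likelihood test, Benjamini-Hochberg over all genes tested, adjusted p of 0.05). Elane and Prtn3 were also left out against the early cells. Both classes of a comparison come from the same libraries, so the library was the block by construction. The members and gene lists were chosen with earlier results of these data known. Named genes are those of the lists, and the 10 with the largest change in each direction with an adjusted p under 0.05, at least 100 UMIs in the higher class and 1 direction in all 3 libraries. Outside this rule, Clec4b2 (against the early and Ltf+ cells) and Lyz2 (against the Ltf+ cells) were named after their values were seen.

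Doublets (Scrublet in scanpy 1.11.5) were kept. DESeq2 1.42.0, other scalings, filters, limits and left-out libraries were tried as alternatives. The edgeR fit of each comparison was also run on simulated counts with known changes. Thinning drew 2000 UMIs per cell with a fixed seed. The erythroid reference cells, used to gauge free RNA, had under 1% calprotectin and 5 or more UMIs of Klf1 plus Car1. Summaries used Python 3.11.15, numpy 2.4.6, pandas 2.3.3, scipy 1.17.1 and matplotlib 3.10.9. Promoter sequences are RefSeq entries of GRCm38.p6, and 13930 of 15287 gene symbols matched RefSeq. Some listed genes are not reported here by name.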

Additional observations from a re-analysis of the deposited data

How the results depend on the processing

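Depth and the 3 libraries limit all counts. The share of precursors was 19.7% with a calprotectin limit of 0.5%, 16.4% with 2%, 15.8% with at most 1 UMI of Ltf, 16.9% with Ltf at most 0.05% of UMIs, 21.2% when cells were thinned first, and 17.6% to 18.5% when 1 library was left out. Against the Ltf+ cells 2854 genes passed, 1885 without the library block, 1511 with DESeq2, 1634 with equal cell numbers, and 1868 (without library c) to 2979 (without library a) with 1 library left out. Within the class 2616 passed, 1432 without the block, 1085 with DESeq2, 1314 with equal cell numbers, and 1730 (without library c) to 2536 with 1 library left out. Against the early cells DESeq2 called 3445 in place of 5504, and leaving out a library gave 4487 to 5414. Against all other cells leaving out a library gave 5206 to 6213. Among the named genes, Lcn2 against all other cells turned to -0.15 with at most 1 UMI of Ltf. Ctsg against the early cells turned to -0.12 with library totals, -0.13 with a calprotectin limit of 2% and -0.15 with Elane plus Prtn3 of at least 1%. Vcam1 within the class, which did not pass (-0.14, adjusted p = 0.218 in edgeR's quasi-likelihood test), was 0.050 without library b and 0.013 with a limit of 0.5%, and passed at -0.50 without library c, -0.29 with library totals and -0.37 with a limit of 2%. For equal cell numbers and left-out libraries fewer cells entered, and for the others the cause was not tested.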

Other observations

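Among inhibitors of granule proteases, Serpinb1a, an intracellular inhibitor of elastase and cathepsin G, had 1899, 2106 and 2226 CPM in the precursors of libraries a, b and c and 428 ± 53.9 CPM in all other Lin-kit+ cells, with a log2 fold change of 2.55 ± 0.04 (edgeR, adjusted p = 3.75e-52). Serpinb1a was called lower in the precursors as a whole than in the Ltf+ cells, but its level varied along the calprotectin share. It stood at 47.6% ± 7.22 of the Ltf+ level at 1 to 2%, 112% ± 3.59 at 10 to 20% and 123% ± 4.04 at 20% and over. Of 5 inhibitors tested against the Ltf+ cells, 1 was higher and 3 lower with TMM, and 2 and 2 with library totals. Slpi, a secreted inhibitor of elastase, was lower than in all other Lin-kit+ cells, with 222 ± 15.3 CPM against 424 ± 5.36 CPM (-0.68 ± 0.05). Of 4 tested inhibitors 3 were higher and 1 lower, where 26.3% of all genes tested were higher and 34.9% lower. Among 4 genes of the nuclear lamina, Lbr was higher and Lmna and Lmnb1 lower than in all other cells, which is close to these shares over all genes. Lmna, which encodes lamin A/C, had 0.565 ± 0.198 CPM against 4.24 ± 0.985 CPM (-2.61 ± 0.46). Its level in the precursors is near the 0.287 CPM that 0 UMIs allow. The erythroid reference cells, which are among the other cells, held 141 Lmna UMIs at 38.8 ± 10.4 CPM. Lmna was too sparse to test against the early or the Ltf+ cells.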
